A study of Eohaustorius estuarius with 16 samples.

Results

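The estuarine amphipod Eohaustorius estuarius, a small crustacean that burrows in sediment and is used in sediment toxicity tests, was profiled on 1-colour (Cy3) Agilent arrays. All 16 arrays, those of laboratory B in an interlaboratory study, were divided into classes chosen by the measured signal of a single assembled transcript fragment, contig_130, on these same arrays. The log2 signal of contig_130 relative to the array's 75th percentile was below 0 on 4 arrays, called the low arrays, and above 0 on 12, called the high arrays. The low arrays were control replicates 4 and 5 and cyfluthrin replicates 4 and 7, so each treatment held 2 low and 6 high arrays. Control animals had spent 10 days in sediment spiked with solvent, and cyfluthrin animals 10 days in sediment spiked with the pyrethroid at a nominal 1.6 µg/kg. The RNA came from whole bodies and a single laboratory made all extracts. The labels give no sex, size or moult stage, and do not say whether an extract held 1 animal.

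Whole-body RNA mixes the transcripts of every organ, from muscle and gut to gonad and cuticle. A transcript made in 1 organ can therefore be lower because that organ holds fewer cells or because each cell holds less of it, and whole-body signals cannot tell these apart. Pyrethroids hold the sodium channels of nerve membranes open for longer than normal, so that nerves fire repeatedly. The files pair contigs with no gene name and no sequence, so contigs are given here by number and no role is assigned to any of them.

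The signal of contig_130 chose the arrays, and its values are a description with no test. It was measured by 2 spots of 1 probe. On the low arrays its log2 signal was -3.60 and -3.44 in control replicates 4 and 5, and -2.76 and -3.05 in cyfluthrin replicates 4 and 7. On the high control arrays it was 6.55, 5.54, 6.03, 6.96, 6.22 and 4.91 in replicates 1, 2, 3, 6, 7 and 8. On the high cyfluthrin arrays it was 6.77, 1.17, 3.90, 4.27, 4.70 and 4.03 in replicates 1, 2, 3, 5, 6 and 8. No array lay near the cut: the highest low array was cyfluthrin replicate 4 and the lowest high array cyfluthrin replicate 2, with 3.93 log2 units between them. The 4 low values lay within 1 log2 unit of each other, whereas the high values ran over more than 5. Both spots were well above background on every array, the low ones included, so contig_130 was dim there and not undetected. The means were -3.21 ± 0.38 (SD, n = 4) and 5.09 ± 1.64 (SD, n = 12), a 315-fold difference. A spot was saturated on control replicate 6 and both on cyfluthrin replicate 1, so the highest values may be understated. After normexp background correction, a correction that compresses dim signals, the difference was 102-fold and the 4 low arrays were again the 4 lowest. The highest low value was then -0.27 and the lowest high value 1.03, so the classes lay nearer to the cut. The widest gap in the ordered values lay above cyfluthrin replicate 2 instead of below it.

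**Figure D1:**
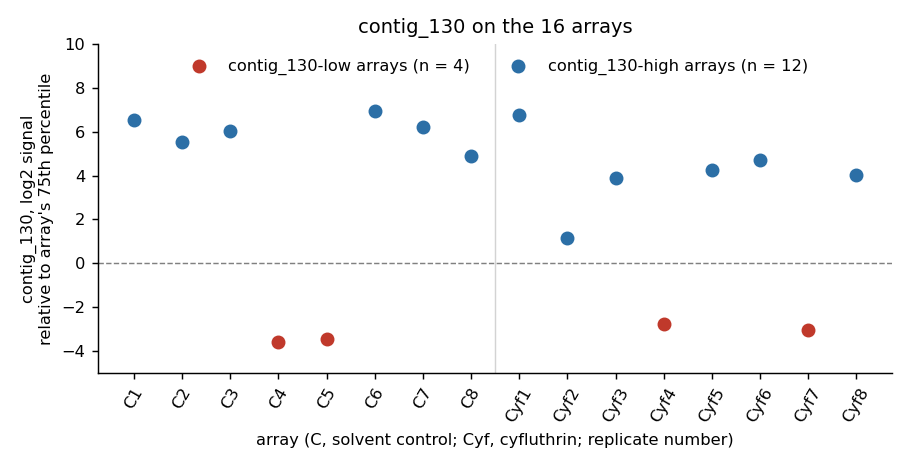
Log2 signal of contig_130 relative to the array's 75th percentile (vertical axis) on each of the 16 arrays (horizontal axis; C, solvent control, Cyf, cyfluthrin, with the replicate number). Red points are the 4 low arrays, between -3.60 and -2.76, blue points are the 12 high arrays, between 1.17 and 6.96, and the dashed line at 0 is the cut.

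The low arrays had much less signal than the high arrays for a set of contigs, and no contig was past the same rule in the other direction. Low and high arrays were compared over 7927 contigs besides contig_130, with treatment as a covariate (limma, an empirical Bayes linear model across contigs, Benjamini-Hochberg adjustment over all contigs). At an adjusted p under 0.05, 76 contigs were lower on the low arrays, 0.959% of those tested, and 0 were higher, 0%. Without adjustment, 319 were lower and 154 higher at p under 0.05, where chance alone gives 396 in all. This balance turned with the scaling. It was 232 and 299 with quantile normalization and 254 and 284 with median scaling. The authors' values gave 243 and 302, and spike-in scaling 226 and 12. All 76 kept a negative difference under these 4 scalings, but a change of sign was hardly possible. The scalings left the median over all tested contigs between -0.01 and 0.08, and the smallest difference of the 76 was -1.15. Because contig_130 was measured on these same arrays and the division was proposed with the data known, these calls serve to list the contigs that varied with it, and nothing is read from their p-values. For 12 contigs too dim to measure on any low array, a difference bounded on the low-array side only took the place of the fitted difference. All 76 then differed by at least 2-fold, 67 by at least 4-fold and 53 by at least 8-fold. Differences of at least 16-fold remained for 33, and of at least 64-fold for 9. A further 22 contigs were above background on 1 to 3 low arrays only and kept fitted differences. These counts therefore rest partly on spots not above background. The median log2 difference of the 76 was -3.76 with these bounds and -3.83 as fitted, and the median over all tested contigs was -0.01. After normexp correction 17 contigs were past the rule, 71 of the 76 had a negative difference and their median was -1.85, where the median over all tested contigs was 0.24. Without control replicate 4 the rule gave 39.

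**Figure D2:**
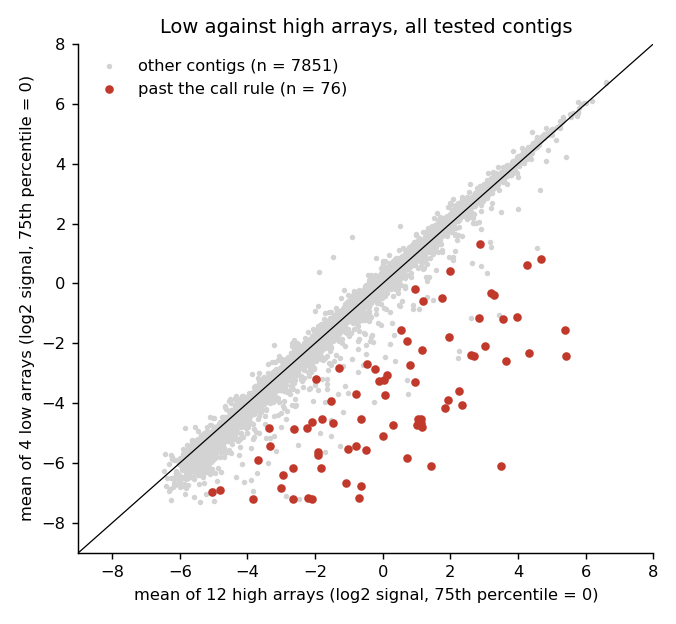
Mean log2 signal of each tested contig (75th percentile = 0) on the 12 high arrays (horizontal axis) and the 4 low arrays (vertical axis), with the line of equality. The 76 contigs past the call rule (red) all lie below the line, and the 7851 others (grey) follow it.

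The contig with the greatest fitted difference was contig_274, measured by 2 spots; after normexp correction contig_3092, described next, differed by more. Its log2 signal was -7.30, -5.82, -4.92 and -6.31 on the low arrays (control replicates 4 and 5, cyfluthrin replicates 4 and 7). On the 12 high arrays the lowest value was -0.05, in cyfluthrin replicate 2, the median 3.64 and the highest 5.58, in cyfluthrin replicate 1. The classes did not overlap. The means differed by -9.58 (SE 0.74) on the log2 scale, 767-fold, but contig_274 was well above background on 1 of the 4 low arrays only, so the size rests on dim spots; after normexp correction the log2 difference was -5.72.

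The next was contig_3092, measured by 1 spot and well above background on all 16 arrays. Its log2 signal was -2.10, -2.30, -2.25 and -3.08 on the low arrays, in the same order. On the high arrays the lowest value was 1.34, again in cyfluthrin replicate 2, the median 5.96 and the highest 6.75, in control replicate 6. The means were -2.43 ± 0.44 (SD, n = 4) and 5.41 ± 1.51 (SD, n = 12), a log2 difference of -7.84 (SE 0.66) or 229-fold, and -6.55 after normexp correction. The spot was saturated on 2 arrays. As with contig_130 and contig_274, the groups did not overlap and cyfluthrin replicate 2 was the high array nearest to the low ones.

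Of the 76 contigs, 42 were well above background on all 4 low arrays, 22 on 1 to 3 of them and 12 on none; 70 were above background on all 12 high arrays. For the 12 the difference is a bound, the mean of the high arrays against the dimmest signal still called above background or the probe's own signal, whichever was higher. It ran from 2.30-fold to 48.1-fold, with a median of 13.2. Of the 12 contigs, 6 were above background on all 12 high arrays. The others were above background on fewer, contig_1343 (2.30-fold) on 7 only, and their dim high values entered the mean as measured. For those contigs the value is an estimate and not a strict lower bound. Over all 8507 contigs, filtered or not, 6 were above background on every high array and on no low array, all among the 76, and 0 showed the reverse. With the tested contigs ranked by signal averaged over the 16 arrays and cut into 3 equal parts, 36 of the 76 were in the brightest part, 23 in the middle and 17 in the dimmest.

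The classes overlapped little for these contigs. All 4 low arrays lay below all 12 high arrays for 63 of the 76, and for 76 of all tested contigs, 0.959%. The list was drawn from the same arrays, so the count of 63 follows largely from the call rule. The 13 separated contigs outside the list had log2 differences from -0.73 to -4.71. Their median was -1.18, against -3.83 as fitted for the 76. Of the 13 listed contigs that overlapped, 7 no longer did without cyfluthrin replicate 2. Leaving out a high array can only lessen overlap, and this one was the lowest of the 12 for 65 of the 76. In the other direction, 2 contigs had all low arrays above all high arrays, 0.0252% of those tested: contig_4204 by 0.30 and contig_3277 by 0.36 on the log2 scale, both named after their values were seen and neither past the call rule.

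The 4 low arrays resembled each other over the 76 contigs. The median log2 signal of the set was -4.07, -4.05, -4.15 and -3.77 on control replicates 4 and 5 and cyfluthrin replicates 4 and 7. These 4 medians lay within 1 log2 unit of each other in both treatments. The number of the 76 that were above background was 47 and 48 on the low control arrays and 58 on each of the low cyfluthrin arrays, against 73 to 76 on the high arrays. Of the 76, 30 had their lowest value in control replicate 4 and 27 in control replicate 5. Another 8 had it in cyfluthrin replicate 4 and 11 in cyfluthrin replicate 7, so no listed contig was lowest on a high array. The call rule largely fixes this, since it lists contigs that are low on these arrays. The median SD was 0.53 over the low arrays and 1.29 over the high arrays, and 65 of the 76 varied more over the high ones. These SDs are of listed contigs, of which 22 were above background on 1 to 3 low arrays and 12 on none. Among all tested contigs the median SDs were 0.34 and 0.38.

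The high arrays were graded. Cyfluthrin replicate 2 had a median of -2.24 over the 76 contigs, and the other 11 high arrays ran from -0.50 in cyfluthrin replicate 5 to 1.66 in cyfluthrin replicate 1. Relative to each contig's mean over the high arrays, the median was -2.55 in cyfluthrin replicate 2, against -4.32, -4.01, -3.71 and -3.74 on the low arrays. That array was the lowest of the 12 for 65 of the 76 contigs, yet 73 of the 76 were above background on it. At the other end, cyfluthrin replicate 1 was the highest of the 12 for 38 contigs. Over the 12 high arrays the median of the 76 followed contig_130 with r = 0.940 and Spearman's rho = 0.860, a description over arrays on which both were scaled to the same 75th percentile. Without cyfluthrin replicate 2 and control replicate 6, the arrays farthest from the median of contig_130, r was 0.832 (n = 10). Within the 6 high control arrays it was 0.717 and within the 6 high cyfluthrin arrays 0.984, where cyfluthrin replicate 2 stands apart.

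**Figure D3:**
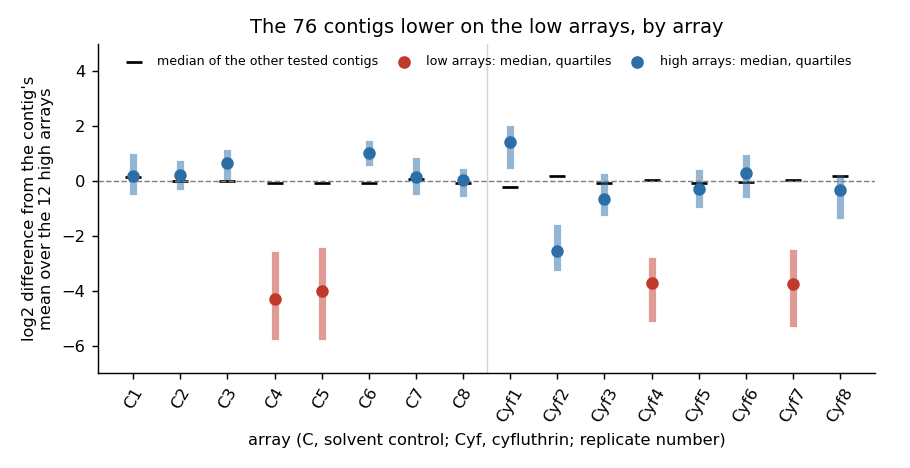
Difference of the 76 contigs from each contig's mean over the 12 high arrays (log2, vertical axis) by array (horizontal axis): points are the median over the 76, thick bars the quartiles, and black ticks the median of the other tested contigs. The low arrays (red) lie between -4.32 and -3.71, cyfluthrin replicate 2 at -2.55, the 11 other high arrays (blue) between -0.66 and 1.43, and the black ticks between -0.22 and 0.18.

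The treatments share no array, so each can be set against the other. Among the 8 control arrays alone, 85 contigs were lower on the 2 low arrays (1.07% of those tested) and 1 was higher (0.0126%), contig_552, named after its value was seen. On the cyfluthrin arrays, 73 of these 85 were lower on the low arrays, against 42.4% of all tested contigs. Both low cyfluthrin arrays lay below all 6 high ones for 60 of the 85, against 2.52% of all tested, and 50 had an unadjusted p under 0.05 in that direction, against 1.78%. The median log2 difference of the 85 was -3.99 among controls and -2.92 with cyfluthrin. Of 57 contigs at least 4-fold lower among controls, 56 were lower with cyfluthrin too, and of the 28 with smaller differences 17 were. The higher one, contig_552, differed by 0.78 (SE 0.14) among controls and 0.52 (SE 0.36) with cyfluthrin. With cyfluthrin its low and high arrays overlapped. Leaving out a control array gave 27 lower contigs without replicate 4, 35 without replicate 5, 53 without replicate 3, 56 without replicate 7 and 336 without replicate 8.

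Among the 8 cyfluthrin arrays alone, 0 contigs were past the rule in either direction (0%). At an unadjusted p under 0.05, 141 were lower and 11 higher, where chance alone gives 396 in all. Without cyfluthrin replicate 2, 11 were lower (0.139%) and 0 higher. All 11 were lower on the low control arrays as well, with an unadjusted p under 0.05 and both low arrays below all 6 high ones, against 14.1% and 13.7% of all tested contigs. Their median log2 difference was -5.16 with cyfluthrin and -6.25 among controls. The greatest differences of the pooled comparison were picked with both treatments in the fit, so their values in each are a description. For contig_274 the difference was -10.34 among controls and -8.82 with cyfluthrin, and for contig_3092 it was -8.35 and -7.32. Across all 7927 contigs, which are not independent replicates, the low-high differences of the treatments had r = 0.517 and Spearman's rho = -0.135, and without the 76 contigs r was 0.139 (7851 contigs).

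**Figure D4:**
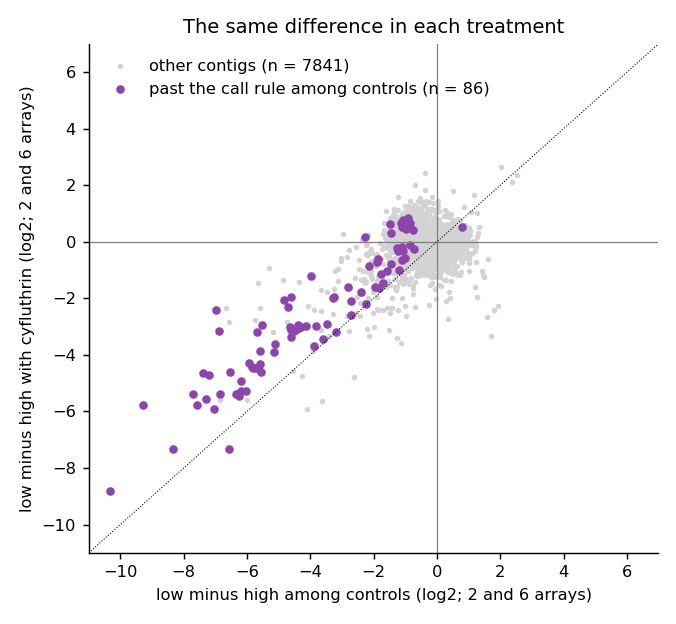
Log2 difference between low and high arrays of each tested contig among controls (horizontal axis; 2 and 6 arrays) and with cyfluthrin (vertical axis; 2 and 6 arrays), with the dotted line of equality. Purple points are the 85 contigs lower and the 1 higher past the call rule among controls, and 73 of the 85 lie below 0 on the vertical axis.

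The arrays sat on 2 slides with 2 rows each, per the deposited scanner files, and each row of a slide held 4 arrays of 1 treatment. Each of these 4 rows had exactly 1 low array, so slide, row and class were not confounded. The low array lay below all 3 high arrays of its row for 76 of the 76 contigs in the row of control replicate 4, for 76 in that of control replicate 5, for 75 in that of cyfluthrin replicate 4 and for 76 in that of cyfluthrin replicate 7. The shares over all tested contigs were 40.9%, 33.8%, 17.7% and 19.8%. The 76 were listed from these same arrays, so lying below the high arrays row by row follows largely from the call rule. The median log2 difference of the 76 was -4.78, -4.35, -3.18 and -3.55 in the same order. Over all tested contigs, 135 were below the 3 high arrays in all 4 rows, 75 of the 76 among them, and 27 were above. With slide as a block 73 contigs were lower, and with slide and row together 69. Slide 1 alone gave 0 contigs past the rule and slide 2 alone 30. That the 76 were lower on both slides likewise follows largely from their listing.

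Other properties of the arrays were compared, of which the division used none except through the 75th percentile. That percentile was 463 to 734 on the low arrays and 467 to 796 on the high ones. The share of spots well above background was 85.3% ± 2.12 on the low arrays (SD, n = 4) and 87.9% ± 4.54 on the high ones (SD, n = 12; exact permutation p = 0.31 within treatments, 2-sided). The spike-in probes, RNA added in a fixed amount at labelling, lay 1.06 ± 0.09 and 1.06 ± 0.41 log2 units above the 75th percentile (n = 4 and 12; exact permutation p = 0.992). The 10th percentile lay at -5.67 ± 0.28 and -5.34 ± 0.66 relative to the 75th (n = 4 and 12; exact permutation p = 0.342). Outlier spots made up 0.133% and 0.107% (exact permutation p = 0.446), and the median SD between the 2 spots of a contig was 0.0743 and 0.0669 (exact permutation p = 0.276). No difference between classes was past the threshold for these 5 measures, with adjusted p-values of 0.558 or above in the permutation test, and each was smaller than 1 SD over the high arrays except that of the spot SD.

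Array-wide likeness was compared with and without the 76 contigs. Over all tested contigs the mean correlation was 0.962 among the 6 pairs of low arrays, 0.950 among the 66 pairs of high arrays and 0.939 over the 48 pairs of a low and a high array. Without the 76 it was 0.962, 0.953 and 0.954, so pairs across classes then had about the mean of pairs of high arrays, and pairs of low arrays the highest. Class accounted for 16.6% of the variance between arrays over all tested contigs and treatment for 12.7%; without the 76 contigs the shares were 7.96% and 14.2%. On the second principal component of all tested contigs, with 21.9% of the variance, the low arrays scored -36.9 to -29.8 and the high arrays -18.1 or above. Without the 76 contigs the classes overlapped on each of the first 6 components; on the second, with 18.0% of the variance, the low arrays scored -31.0 to 8.83 and the high arrays -28.8 to 36.6. These values include the contigs listed by class and carry no test.

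Other contigs split the arrays in other ways. The log2 signal of contig_3644 was -3.61 to -2.45 on the 4 low arrays and -3.32 to 6.63 on the high arrays, so all low arrays were low for it but not all high arrays high. The log2 signal of contig_766 was 0.86 to 2.94 on the low arrays, while on the high arrays it ran from -7.04 to 3.64 and was well above background on 8 of 12.

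Class was balanced over treatment, so the change with cyfluthrin could be measured beside it. Controls lay in row 2 of slide 1 and row 1 of slide 2, and cyfluthrin arrays in the other rows. Treatment did not vary within a row of a slide, so its change cannot be told apart from a difference between those rows. With class as a covariate 272 contigs were higher with cyfluthrin (3.43% of those tested) and 270 lower (3.41%), and without it 282 and 268; 518 contigs were called in both fits, 95.6% of those called with the covariate and 94.2% of those called without. Whether the response differed between classes was tested by the interaction of class and treatment. It gave 0 contigs (0%, limma, smallest adjusted p = 0.774), with 322 higher and 110 lower at an unadjusted p under 0.05, where chance alone gives 396 in all. Without cyfluthrin replicate 7 the interaction gave 12 contigs. For cyfluthrin itself the counts were 84 higher and 94 lower with normexp, 106 and 97 when replicate numbers entered as a block, 420 higher without cyfluthrin replicate 4 and 174 lower without cyfluthrin replicate 7.

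The greatest rise with class as a covariate was in contig_2303, from -1.25 ± 0.92 in controls to 2.63 ± 0.52 with cyfluthrin (log2 signal, mean ± SD, n = 8; change 3.88, SE 0.36, limma adjusted p = 5.74e-06). It rose by 3.42 on the log2 scale on the low arrays and 4.03 on the high arrays (interaction -0.61, SE 0.84, limma adjusted p = 0.874). The next was contig_4609, from -3.61 ± 0.72 to 0.12 ± 0.52 (n = 8; change 3.73, SE 0.28, limma adjusted p = 7.46e-07), with changes of 3.70 on the low and 3.74 on the high arrays (interaction -0.04, SE 0.67, limma adjusted p = 0.99). The level of contig_2561 was 2.78 ± 0.37 in controls and 0.16 ± 0.29 with cyfluthrin (n = 8; change -2.62, SE 0.16, limma adjusted p = 1.74e-07). Its change was -3.03 on the low and -2.48 on the high arrays (interaction -0.55, SE 0.36, limma adjusted p = 0.774). These 3 contigs had a change of the same direction in both classes, and no difference in its size was past the threshold.

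The greatest fall was in contig_1413, which also varied within both treatments. On the low arrays its log2 signal was 2.14 and -1.98 in control replicates 4 and 5, and -2.29 and -2.53 in cyfluthrin replicates 4 and 7. On the high control arrays it was 5.62, 2.84, 6.43, 4.60, 5.98 and 3.39 in replicates 1, 2, 3, 6, 7 and 8. On the high cyfluthrin arrays it was 4.53, -1.84, -2.29, -2.39, 0.73 and 3.73 in replicates 1, 2, 3, 5, 6 and 8. The high cyfluthrin arrays were split between values above 0 and values near those of control replicate 5 and the low cyfluthrin arrays. The treatments overlapped. The log2 change with cyfluthrin was -3.92 (SE 1.07, limma adjusted p = 0.0379) with the covariate, and without it the SE was 1.32 and limma's adjusted p 0.085. The call was lost under 14 of 22 alternatives. Its low minus high difference, -3.78, was not past the rule.

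None of the 76 contigs listed by class was called for cyfluthrin. Their median SD over the high arrays was 1.29, against 0.38 for all tested contigs. A change of a given size was therefore harder to call among the 76, and the absence of calls does not show that they did not respond. With class as a covariate, 0 of the 76 were past the threshold, where 3.43% of all tested contigs were higher and 3.41% lower (limma), and 9 were lower and 0 higher at an unadjusted p under 0.05, where 9.95% of all tested contigs were lower and 11.1% higher at that level. The change was negative for 62 of the 76, and for 43 without cyfluthrin replicate 2, against 48.4% of all tested contigs. Their median log2 change with cyfluthrin was -0.45 with all arrays and -0.11 without cyfluthrin replicate 2, against 0.01 over all tested contigs. The low-high difference was 1.22 log2 units smaller with cyfluthrin at the median (interaction of the 76, with 0.08 over all tested contigs). This includes cyfluthrin replicate 2, whose median over the 76 was -2.55 relative to each contig's mean over the high arrays. Of the 76, 47 and 48 were above background on the low control arrays and 58 on each low cyfluthrin array. An unadjusted interaction p under 0.05 (limma) was found for 4 of the 76, against 5.45% of all tested contigs.

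Contigs called for cyfluthrin on the 12 high arrays were then read on the 4 low arrays, which share no array with them. The low arrays lay in the same rows of the slides as the high arrays, each row with 1 treatment. A difference between rows would thus be shared by both sets, and the likeness below cannot tell it apart from cyfluthrin. The high arrays gave 198 contigs that were higher (2.5%) and 122 that were lower (1.54%). Of the 198, 185 were higher with cyfluthrin on the low arrays, against 58.7% of all tested contigs, and both cyfluthrin arrays lay above both controls for 111, against 32.5%. Of the 122, 120 were lower, against 41.3%, and 99 did not overlap, against 15.9%. The median log2 change was 0.85 on the high and 0.46 on the low arrays for those higher, and -0.70 and -0.74 for those lower. With 2 arrays per treatment, the low arrays alone gave 0 contigs past the threshold (limma), with 1017 higher and 266 lower at an unadjusted p under 0.05.

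**Figure D5:**
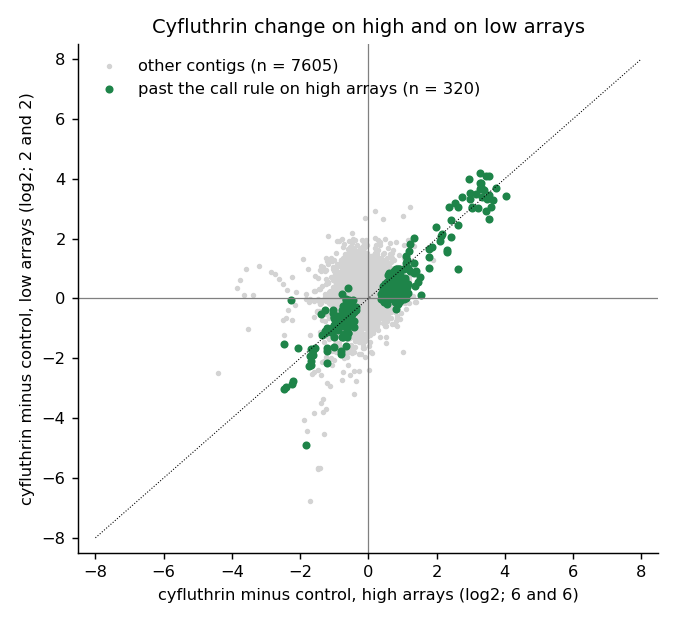
Log2 change with cyfluthrin of each tested contig on the high arrays (horizontal axis; 6 and 6 arrays) and on the low arrays (vertical axis; 2 and 2 arrays), with the dotted line of equality. Green points are the contigs called on the high arrays; 185 of the 198 that were higher and 120 of the 122 that were lower had the same direction on the low arrays.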

How the data were processed

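Each of the 16 samples had 1 scanner file. Its processed signal is an intensity that Agilent Feature Extraction 10.7.1.1 background-subtracted and detrended within the array, per the file headers (9.1 per the submitters' processing notes). Values deposited by the authors as a series table are on the log2 scale. Column medians were -0.0384 to 0.0488, and each column followed quantile-normalized values centred on the probe's median with r from 0.996 to 0.999, which settles scale, centring and direction; no source used here states the steps. The log2 signal was scaled by the 75th percentile over 15208 contig spots. Control spots and outlier spots were left out, and spots of a contig averaged; saturated spots were kept. Testing required 50% or more of a contig's spots well above background on 4 or more arrays of either class, which 7927 contigs besides contig_130 met and 579 did not. 4 values over all tested contigs were missing.

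The class was taken from contig_130 with all its spots. Fits used limma 3.58.1 in R 4.3.3 (2-sided). Contig_130 stayed in each fit and out of each count. Array measures were compared by exact permutation of class within treatments (784 choices) and adjusted over 5 measures. The division, the contigs and the lists were chosen with earlier results of these data known. Contigs given by number were at most the 2 greatest rises and 2 greatest falls past the threshold in a comparison, with contig_130, contig_3644 and contig_766 as contigs that split the arrays; contig_552, contig_4204 and contig_3277 were named outside this rule after their values were seen. Of 10 spike-in probes, 5 were kept that were above background, unsaturated and followed the median of the others with r over 0.8; the rule as first written, with the mean, kept 0. The low-high fit was tested on simulated data, 7924 contigs with means and spread taken from the arrays. Of 200 contigs given a log2 change of 1, 61% were recovered (9 false calls); a change of 2 gave 92% (8 false calls) and a change of 4 gave 98.5% (8 false calls). With no change simulated there were 0 calls. The simulated noise was independent between contigs, with the same SD on all arrays, and no simulated contig chose the classes. These rates may therefore not carry over to the measured arrays. Alternatives were other normalizations, normexp with an offset of 50 on the median signals, the authors' values, filters, blocks, variance models, thresholds and each array left out. The labels do not say that samples came from separate containers, so a p-value covers the spread between arrays, which may be partly technical. The number of arrays limits the precision.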

Additional observations from a re-analysis of the deposited data

Results flagged for a closer look

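Dixon's test at the 95% level compared the highest or lowest array of a set with its neighbours, over 36 sets: the 5 array measures, the 6 contigs given by number for a comparison and the median of the 76 contigs, each within the low, high control and high cyfluthrin arrays. Chance marks about 1 set in 20, and 2 were marked. Among the 6 high control arrays, the spike-in probes of control replicate 3 lay 0.17 log2 units above the 75th percentile and those of the other 5 between 0.94 and 1.08. Among the 4 low arrays, contig_1413 had a log2 signal of 2.14 in control replicate 4 and -2.53 to -1.98 in the other 3.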

How the results depend on the processing

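Against 76 contigs lower on the low arrays, the count was 17 with normexp, 41 over contigs above background on all 16 arrays, 44 at adjusted p under 0.01, 134 with array weights, 132 with the level of contig_130 in place of the class, 0 on slide 1 alone (limma; 227 at an unadjusted p under 0.05) and 30 on slide 2 alone. Fewer arrays, fewer contigs or another threshold are part of 4 of these settings; the cause of the others was not tested. An adjusted p under 0.1 gave 93. The other scalings, filters and variance models, and slide and row as blocks, gave 66 to 82. Leaving out each array gave 39 to 95 lower, 39 without control replicate 4, and 0 to 2 higher (1 without cyfluthrin replicate 2, 4, 5 or 6, 2 without 7). Against 0 higher, array weights gave 1 and the level of contig_130 gave 2. Among controls alone (85 lower, 1 higher) slide as a block gave 55 and 0, quantile normalization 12 higher, normexp 2 higher and contigs above background on all arrays 2 higher; leaving out an array gave 27 to 336 lower, 27 without replicate 4, 35 without replicate 5, 53 without replicate 3, 56 without replicate 7 and 336 without replicate 8, and 0 to 5 higher. With cyfluthrin alone (0 and 0) leaving out an array gave 0 to 11 lower and 0 to 1 higher (11 lower without replicate 2, 2 lower and 1 higher without replicate 7). The interaction ran from 0 to 12, 12 without cyfluthrin replicate 7. With class as a covariate, normexp gave 84 higher and 94 lower with cyfluthrin, and leaving out an array 198 to 420 higher, 420 without replicate 4 of cyfluthrin, and 174 to 361 lower, 174 without replicate 7. Contig_1413 lost its call in 14 of 22 alternatives. The class difference in spike-in level changed from 0.00 to between -0.0296 (-0.0166 without control replicate 5) and 0.0319, and that in spot SD from 0.0074 to between -0.0014 and 0.0132, as single low arrays were left out.

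With the replicate number as a block, 0 contigs were lower or higher by class (limma; 167 and 45 at an unadjusted p under 0.05); class was then estimated from numbers 5 and 7 only. For cyfluthrin 106 were higher and 97 lower. As a random block (correlation -0.06) the number gave 80 lower by class. Same-numbered arrays shared slide and column but did not deviate together throughout (r from -0.258 to 0.429), so the numbers were not taken as pairs.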
